A study of Mus musculus with 4 samples.

Results

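The RNAs described here are 93 abundantly transcribed long intergenic RNA (lincRNA) genes, measured in nascent RNA of mouse embryonic stem (ES) cells with and without a mutation of Supt3. They were chosen by level: a gene carried the lincRNA biotype in the authors' deposited table and its raw counts summed to at least 1000 over the 4 libraries. Of 5499 lincRNA genes in a table of 54146 genes, 102 reached that sum. From these, 9 were left out by place or name: 3 in an interval of distal chromosome 12, 1 each in the distal parts of chromosomes 14 and 17, 1 on X, Y or the mitochondrial genome, and 3 that are H19, Gas5 or Snhg genes. The summed count is therefore a description and not a finding. The lowest sums inside the limit were 1058 for A430073D23Rik, 1067 for Gm39469 and 1069 for Gm19325, and the highest outside it were 997 for Gm26870, 990 for Gm47430 and 986 for 9530059O14Rik.

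The cells were mouse ES cells grown in LIF and serum, and the labels name neither the line nor the clone. A pair of libraries is labelled Supt3 WT and a pair Supt3 KO, and the KO allele is not described further. Supt3 encodes a subunit of the core of SAGA, a coactivator that acts at RNA polymerase II promoters. RNA made during a pulse of 4-thiouridine was purified and sequenced (TT-seq), with labelled RNA of the yeast S. pombe added as a spike-in. Mouse genes received between 13092151 and 19405100 counts per library. Supt3 itself, counted over its whole gene span, stood at 148 and 159 CPM (counts scaled to the size of the library) in the WT libraries and 123 and 140 CPM in the KO libraries, a log2 fold change of -0.22 ± 0.10 (SE) that was not called (edgeR, adjusted p = 0.232). Because the altered part of the gene is not stated, this value does not check the labels. The labels do not state that replicate libraries come from different cultures; p-values therefore cover only the spread among these libraries, which may be technical.

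A lincRNA is a transcript without an open reading frame of known function that lies outside protein-coding genes and is mostly made by RNA polymerase II, capped and spliced like an mRNA. Some act as nuclear scaffolds, some act on genes beside them through the act of transcription, and some mark an active enhancer or promoter. Many are retained in the nucleus or decay quickly, so nascent RNA shows their transcription more directly than the RNA pool does. In ES cells the group includes Platr genes (pluripotency-associated transcripts) and Lncenc1, which is enriched in the naive state, next to RNAs found in most cells such as Malat1 and Neat1.

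The sequences below belong to lincRNAs that the later results turn on. The first is the Bc1 RNA, a short neuronal cytoplasmic RNA made by RNA polymerase III, which fell in KO. It is the whole annotated gene, chr7:144914470-144914637 on the plus strand (GENCODE M21, mm10). The capitals mark matches to the A box and the B box, the internal promoter elements of RNA polymerase III genes, at bases 14 to 24 and 57 to 66.

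Bc1: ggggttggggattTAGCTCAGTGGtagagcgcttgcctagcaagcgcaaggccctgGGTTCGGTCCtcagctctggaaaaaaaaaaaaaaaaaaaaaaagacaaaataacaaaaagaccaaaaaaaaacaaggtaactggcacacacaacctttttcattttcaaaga

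Both motifs stood together in the first 168 bases of 1 of 9050 lincRNA transcripts of at least that length (0.0110%), searched on the transcribed strand. Bc1 belongs to this set, so the 1 transcript with both motifs is Bc1 itself. The A box match was found in 9 of the 9050 (0.0994%) and the B box match in 6 (0.0663%), Bc1 included each time. These shares are therefore no independent background for the matches in Bc1, and the function of the matches was not tested. Bc1 is the parent of the ID family of short interspersed repeats, so reads from it can align to near-identical copies and its count is uncertain to that degree.

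Promoter windows are shown for some of the lincRNAs called in the comparison whose RefSeq start lay within 1 kb of the deposited start. Capitals mark the 50 bases from that start, and all are on GRCm38.p6, the build the files use. Platr22 (chr1:136695961-136696260, plus strand) was the only higher one of these. The windows of 4930461G14Rik (chr9:58454923-58455222, plus strand) and Gm30228 (chr10:27809667-27809966, minus strand) belong to RNAs that fell. The window of B230354K17Rik (chr17:45433708-45433880, plus strand) is shown only as far as the start of Cdc5l, the coding gene that runs the other way from it.

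Platr22: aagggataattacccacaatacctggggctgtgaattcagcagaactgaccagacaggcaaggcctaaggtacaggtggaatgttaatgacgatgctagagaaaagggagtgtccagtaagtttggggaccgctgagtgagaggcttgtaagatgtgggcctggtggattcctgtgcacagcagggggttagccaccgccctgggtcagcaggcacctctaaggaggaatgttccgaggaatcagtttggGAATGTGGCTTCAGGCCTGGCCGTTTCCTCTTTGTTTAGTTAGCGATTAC
4930461G14Rik: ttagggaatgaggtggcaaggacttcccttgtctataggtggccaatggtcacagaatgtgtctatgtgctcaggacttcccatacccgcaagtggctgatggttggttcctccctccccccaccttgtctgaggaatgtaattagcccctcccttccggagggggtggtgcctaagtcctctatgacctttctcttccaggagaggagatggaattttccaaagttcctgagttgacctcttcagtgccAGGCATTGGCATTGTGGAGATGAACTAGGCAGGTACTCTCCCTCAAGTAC
Gm30228: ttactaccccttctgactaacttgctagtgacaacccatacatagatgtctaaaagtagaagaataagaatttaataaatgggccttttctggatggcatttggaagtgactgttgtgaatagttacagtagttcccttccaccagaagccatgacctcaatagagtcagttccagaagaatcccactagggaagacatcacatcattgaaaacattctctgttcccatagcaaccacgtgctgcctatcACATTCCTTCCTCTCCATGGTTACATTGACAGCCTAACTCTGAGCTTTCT
B230354K17Rik: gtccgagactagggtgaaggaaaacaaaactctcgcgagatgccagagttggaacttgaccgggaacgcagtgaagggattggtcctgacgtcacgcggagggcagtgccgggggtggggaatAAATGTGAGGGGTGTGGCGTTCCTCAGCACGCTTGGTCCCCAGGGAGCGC

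The windows differed in CpG content, with 6 CpG in Platr22, 2 in 4930461G14Rik, 1 in Gm30228 and 12 in the 173 bases of B230354K17Rik. The full window of B230354K17Rik held 27. Lower RNAs with such a start but no window printed had 47 (E130102H24Rik), 8 (D030068K23Rik) and 7 CpG (Bc1). A RefSeq promoter of 250 bases before to 50 after the start could be matched by name or identifier for 53 of the 93 genes. The median was 8 CpG among these and 7 over all 32851 promoters. The GC box GGGCGG, on either strand, was in 35.8% of the 53 and in 35.7% of all promoters, and Platr22 carried it 55 bases before its start. E130102H24Rik, D030068K23Rik and the full window of B230354K17Rik carried it too. TATAAA was in 7.55% against 13.6%, the octamer ATGCAAAT bound by POU factors in 7.55% (4 genes) against 1.74%, and CAAGGTCA, the site of the nuclear receptor Esrrb, in 1.89% against 1.56%. In the 41 genes whose RefSeq start lay within 1 kb of the deposited start, the shares were 39.0% for GGGCGG, 4.88% for TATAAA, 7.32% for ATGCAAAT and 2.44% for CAAGGTCA. Both strands were searched for each, and no motif contains another. These are matches of letters and not sites of binding.

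A further set of sequences are the miRNAs that lie inside these genes on the same strand, since their host RNA is what was counted. Of the 93 genes, 3 held a hairpin in the RefSeq table. E130102H24Rik, which fell, holds miR-101a, whose arms lie at chr4:101346957-101346977 (3p) and chr4:101346993-101347014 (5p) on the minus strand. 6720427I07Rik holds let-7d (chr13:48536024-48536099, minus strand) and was not called. Capitals are the seed, bases 2 to 8, and no pair of these arms shares a seed.

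mmu-miR-101a-3p: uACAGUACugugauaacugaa
mmu-miR-101a-5p: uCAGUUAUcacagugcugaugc
mmu-let-7d-5p: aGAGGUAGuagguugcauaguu
mmu-let-7d-3p: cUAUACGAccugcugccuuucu

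6720427I07Rik stood at 112 and 112 CPM in WT and 121 and 120 CPM in KO (log2 fold change 0.10 ± 0.08, edgeR adjusted p = 0.540). The third host, 2900076A07Rik with miR-1839, stood at 20.9 and 24.1 CPM in WT and 23.5 and 20.9 CPM in KO. The mature miRNAs were not measured.

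The 93 genes lie on 19 chromosomes and are varied in form. Their gene spans ran from 0.168 kb (Bc1) to 871.5 kb with a median of 20.0 kb, and their longest transcripts had 1 to 11 exons with a median of 4. Mean levels over the 4 libraries ran from 16.2 to 6882 CPM with a median of 40.1 CPM, and 18 genes were above 100 CPM. Levels can be compared between genes only per length. On that scale the median was 2.22 CPM per kb, with 2067 for Gm26917, 930 for Gm42418, 186 for Malat1 and 130 for Bc1 at the top and 0.0712 for Gm26561 at the bottom. The gap to the nearest protein-coding gene was 0 for 17 genes, under 5 kb without overlap for 23 and 50 kb or more for 22. Reads were assigned by strand over whole gene spans and dropped where same-strand genes overlap: none of 1773 genes (0.0%) wholly inside an intron of a well-counted same-strand coding gene had a count, against 756 of 1668 (45.3%) lying within one on the opposite strand. A lincRNA nested in a same-strand gene could therefore not enter the group, and 66 of the 93 had no same-strand overlap. The same rule puts Sox2, which lies inside Sox2ot, at 0 counts.

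The question the design puts is how transcription of these RNAs differs between Supt3 WT and KO cells. At an adjusted p under 0.05 (edgeR quasi-likelihood test over all 16789 genes tested, Benjamini-Hochberg), 14 lincRNAs fell, 5 rose and 74 did not pass. All 93 passed the filter on low counts. The 14 that fell were led by Gm38324, Otx2os1, Gm35281 and Bc1, each at least 2-fold lower, and the 5 that rose were Gm14005, Platr22, Gm44748, Gm21781 and 2610037D02Rik, none of them 2-fold. The called share was 20.4% of the 93, against 8.07% of all genes tested, 9.98% of tested genes with the same summed count and 10.5% of all tested lincRNAs. Lower calls made 15.1% of the 93 against a background of 4.02% over all genes, 4.31% at the same summed count and 7.5% over lincRNAs. Higher calls made 5.38% against 4.05%, 5.66% and 3.02%. The share of higher calls was near its background. The share of lower calls was above it, but the genes were proposed with results of these data known, and no test of the list was made.

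Both KO libraries lay below both WT libraries for 32 of the 93 RNAs, against 26.0% of all genes tested, and above them for 23, against 26.7%. Together these made 59.1% of the 93 and 52.7% of all genes tested, so separate groups were nearly as frequent elsewhere. The median log2 fold change was -0.04, with 56 values below 0 and 37 above, against 0.01 over all genes tested and 0.02 at the same summed count. Scaling by the S. pombe counts moved the median of all genes to -0.23 and that of the 93 to -0.29. With that scaling the spread between replicates was larger, and edgeR called 0 of the 93 (background 0.101%; 3 had an unadjusted p under 0.05, all lower), although each of the 19 kept its sign. DESeq2 called 15 of the 19 and none of the other RNAs (background 6.91%). The number of calls also moved when a single library was left out. Such a fit has 1 library in a genotype, and no share of calls over all genes stands beside it. The move is therefore not read as particular to the lincRNAs. In these fits the median log2 fold change of the 93 ranged from -0.08 to -0.02, against -0.01 to 0.01 over all genes tested.

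**Figure D1:**
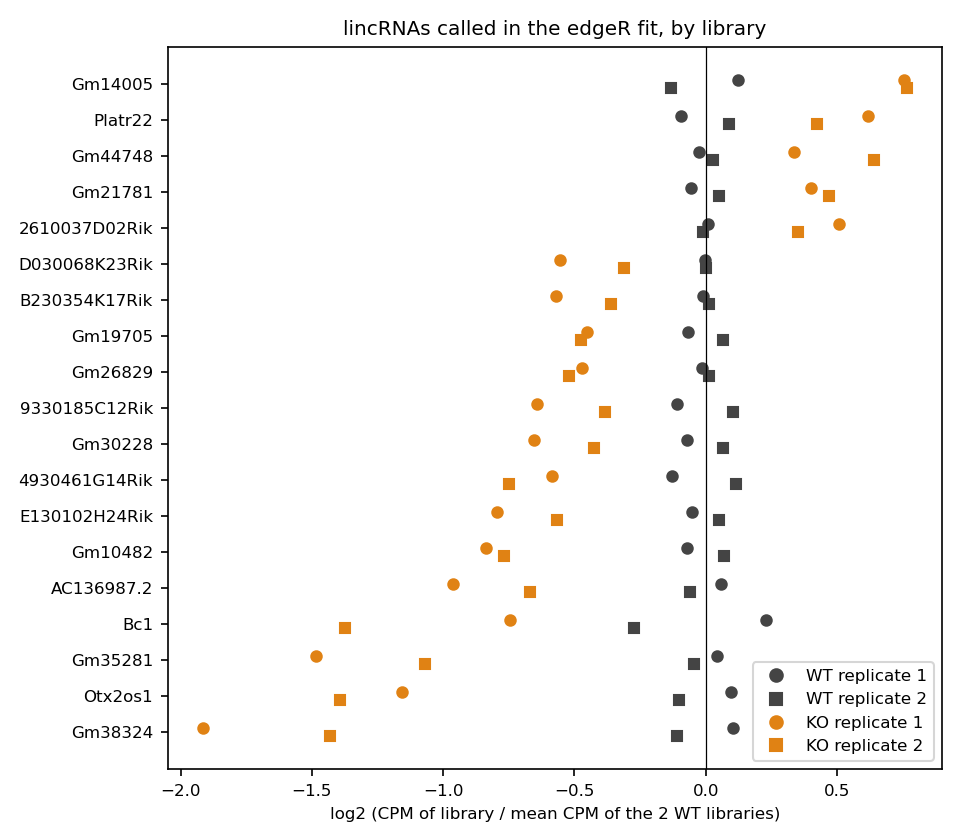
CPM of each library divided by the mean of the WT pair, on a log2 axis, for the 19 lincRNAs called in the edgeR fit (grey, WT; orange, KO; circles, replicate 1; squares, replicate 2). In each row the KO points lie on one side of the WT points, with Gm38324 farthest to the left and Gm14005 farthest to the right.

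The largest falls were in RNAs of modest level. Gm38324 (chr3:22285081-22297830, minus strand) stood at 33.9 and 29.3 CPM in the WT libraries and 8.38 and 11.7 CPM in the KO libraries, a log2 fold change of -1.64 ± 0.17 (SE, adjusted p = 0.00169). Both KO libraries were far below the WT pair. Its nearest coding gene, Tbl1xr1, a corepressor subunit 68.5 kb away, changed by -0.03 and was not called. Gm35281 (chr14:29786828-29852408, minus strand) stood at 28.7 and 26.9 CPM in WT and 9.94 and 13.2 CPM in KO (-1.25 ± 0.16, adjusted p = 0.00298). Its neighbour Cacna2d3, a calcium channel subunit gene 65.0 kb away, was at 0.18 and not called.

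Otx2os1 (chr14:48668708-48870683, plus strand) starts inside Otx2, the homeobox gene of the epiblast and the anterior brain, on the opposite strand. It runs out past the deposited Otx2 start and away from that gene. Its levels were 36.3 and 31.6 CPM in WT and 15.2 and 12.9 CPM in KO, a log2 fold change of -1.27 ± 0.14 (adjusted p = 0.00178). Otx2 stood at 56.3 and 60.4 CPM in WT and 19.8 and 24.6 CPM in KO (-1.39 ± 0.13, adjusted p = 0.00109). Both genes were lower in each KO library than in each WT library, and by similar amounts. The genes share 5112 bases on opposite strands.

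Bc1 was the shortest of the 93 and the most counted per kb of those called. It stood at 34.2 and 24.2 CPM in WT and 17.4 and 11.3 CPM in KO, a log2 fold change of -1.03 ± 0.22 (adjusted p = 0.0265). The libraries of each genotype differed by more here than in most of the called RNAs, and the groups did not overlap. The change was -0.77 without WT replicate 1, -0.73 without KO replicate 2 and -1.36 without KO replicate 1, and it was called each time. Oraov1, which starts 0.463 kb beyond its end, changed by -0.03. Fgf4, the FGF ligand that ES cells secrete, lies 49.2 kb away and fell from 71.8 and 68.8 CPM to 40.5 and 45.5 CPM (-0.71 ± 0.10, adjusted p = 0.00476).

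E130102H24Rik, the host of miR-101a, fell together with coding genes on its flank. It stood at 45.5 and 48.9 CPM in WT and 27.2 and 31.9 CPM in KO (chr4:101346531-101356735, minus strand; -0.67 ± 0.11, adjusted p = 0.0104). Ak4, a mitochondrial adenylate kinase gene 62.5 kb away, went from 183 and 206 CPM to 90.3 and 104 CPM (-1.004 ± 0.107, adjusted p = 0.00173). Dnajc6, which encodes the clathrin uncoating factor auxilin and lies 139.9 kb away, went from 157 and 180 CPM to 72.8 and 84.6 CPM (-1.10 ± 0.11, adjusted p = 0.00146). All 3 were lower in both KO libraries, with the coding genes changed more than the lincRNA.

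AC136987.2 (chr16:9079396-9137444) stood at 48.6 and 44.9 CPM in WT and 23.96 and 29.3 CPM in KO (-0.80 ± 0.12, adjusted p = 0.00708). Gm10482 (chr5:10187866-10237890) stood at 31.0 and 34.1 CPM in WT and 18.2 and 19.1 CPM in KO (-0.80 ± 0.12, adjusted p = 0.00575). 4930461G14Rik, whose promoter is printed above, stood at 61.4 and 72.7 CPM in WT and 44.7 and 39.9 CPM in KO (-0.67 ± 0.11, adjusted p = 0.0105). The groups did not overlap for any of these, and their nearest coding genes were not called or not tested. These RNAs, with Gm38324, Otx2os1, Gm35281, Bc1, E130102H24Rik and Gm14005, are the 9 that stayed called with any 1 library left out.

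**Figure D2:**
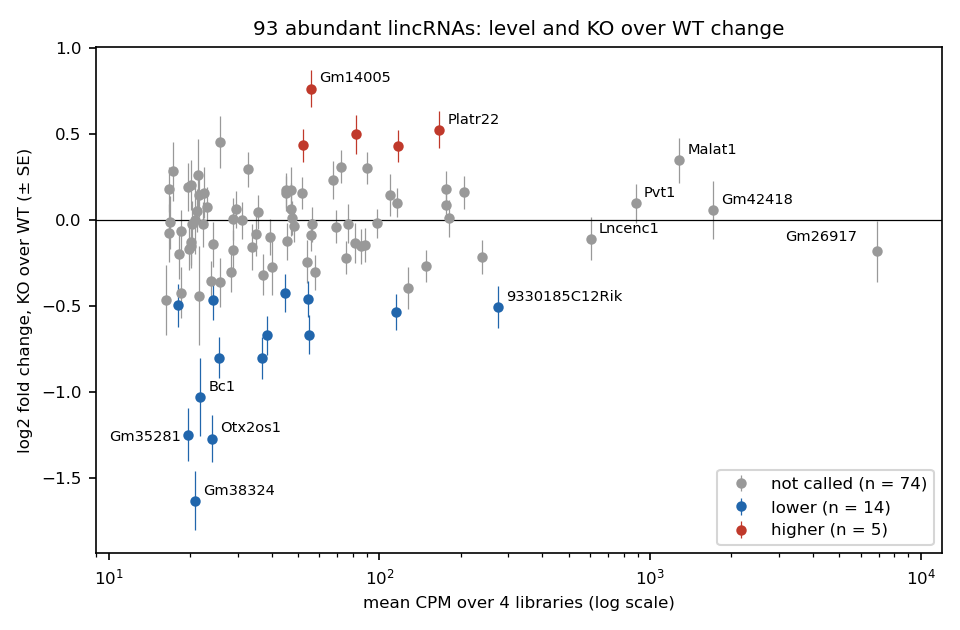
Mean CPM over the 4 libraries (log axis) against the log2 fold change, KO over WT, with its standard error, for the 93 lincRNAs. The RNAs more than 2-fold lower lie between 19.7 and 23.99 CPM, and the 5 most counted RNAs are all uncalled.

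The other lower calls were smaller. 9330185C12Rik is the most counted of all the called RNAs and lies 1721 kb from the nearest coding gene, Cntnap5a, the largest gap in the group. It stood at 297 and 345 CPM in WT and 206 and 246 CPM in KO (-0.51 ± 0.12, adjusted p = 0.0394), and without WT replicate 2 its adjusted p was 0.320. Gm30228 stood at 130 and 143 CPM in WT and 86.6 and 102 CPM in KO (-0.54 ± 0.11, adjusted p = 0.0181). Its adjusted p was 0.0826 without WT replicate 2. The groups of both RNAs did not overlap. Without WT replicate 2 the log2 fold changes were -0.39 for 9330185C12Rik and -0.46 for Gm30228. That fit holds 1 WT library, so the lost calls are not traced to the library left out.

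Gm26829 stood at 20.96 and 21.4 CPM in WT and 15.3 and 14.8 CPM in KO (-0.50 ± 0.13, adjusted p = 0.0458), with an adjusted p of 0.1003, 0.222 and 0.0551 without WT replicate 1, WT replicate 2 and KO replicate 2. D030068K23Rik, beside the homeobox gene Zfhx3, stood at 51.4 and 51.7 CPM in WT and 35.1 and 41.5 CPM in KO (-0.43 ± 0.11, adjusted p = 0.0493). Its adjusted p was 0.0789, 0.161 and 0.110 without WT replicate 1, WT replicate 2 and KO replicate 1. For both RNAs the groups were apart, and the calls were at the edge of the threshold. DESeq2 called neither.

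B230354K17Rik lies 314.6 kb beyond Supt3 on chromosome 17, the nearest of the 93 to the mutated gene, and starts 145 bases from Cdc5l, a splicing factor gene transcribed the other way. It stood at 62.4 and 63.5 CPM in WT and 42.4 and 49.0 CPM in KO (-0.46 ± 0.10, adjusted p = 0.0287), with an adjusted p of 0.103 without WT replicate 2. Cdc5l changed by -0.10 (adjusted p = 0.718). The log2 ratio of B230354K17Rik to Cdc5l was -2.46 and -2.63 in WT and -2.87 and -2.95 in KO, a difference of -0.37. The ratio was lower in both KO libraries, at an exact two-sided permutation p of 0.3333, the smallest that 2 against 2 libraries allow. On its other side, Spats1, 6.39 kb away, fell by 0.79 ± 0.17 on the log2 scale (adjusted p = 0.0228).

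Gm19705 and Platr22 lie 5.41 kb apart on the same strand of chromosome 1 and moved in opposite directions. Gm19705 (chr1:136670769-136690804) stood at 26.8 and 29.4 CPM in WT and 20.5 and 20.2 CPM in KO (-0.47 ± 0.12, adjusted p = 0.0447). Platr22 (chr1:136696211-136726142), just downstream, stood at 128 and 145 CPM in WT and 210 and 183 CPM in KO (0.52 ± 0.11, adjusted p = 0.0213). The log2 ratio of Gm19705 to Platr22 was -2.25 and -2.30 in WT and -3.35 and -3.18 in KO, a difference of -0.99. The ratio was lower in both KO libraries, which follows from the separate groups of both genes and is no further support. A ratio within a library does not depend on how libraries are scaled to each other. The nearest coding gene of both is Zfp281, a zinc finger regulator of pluripotency, which stood at 90.7 and 81.8 CPM in WT and 92.2 and 85.6 CPM in KO (0.04, adjusted p = 0.834). Gm19705 did not pass without WT replicate 2 (adjusted p = 0.305) or in DESeq2 (0.101), and Platr22 did not pass without WT replicate 1 (0.140).

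**Figure D3:**
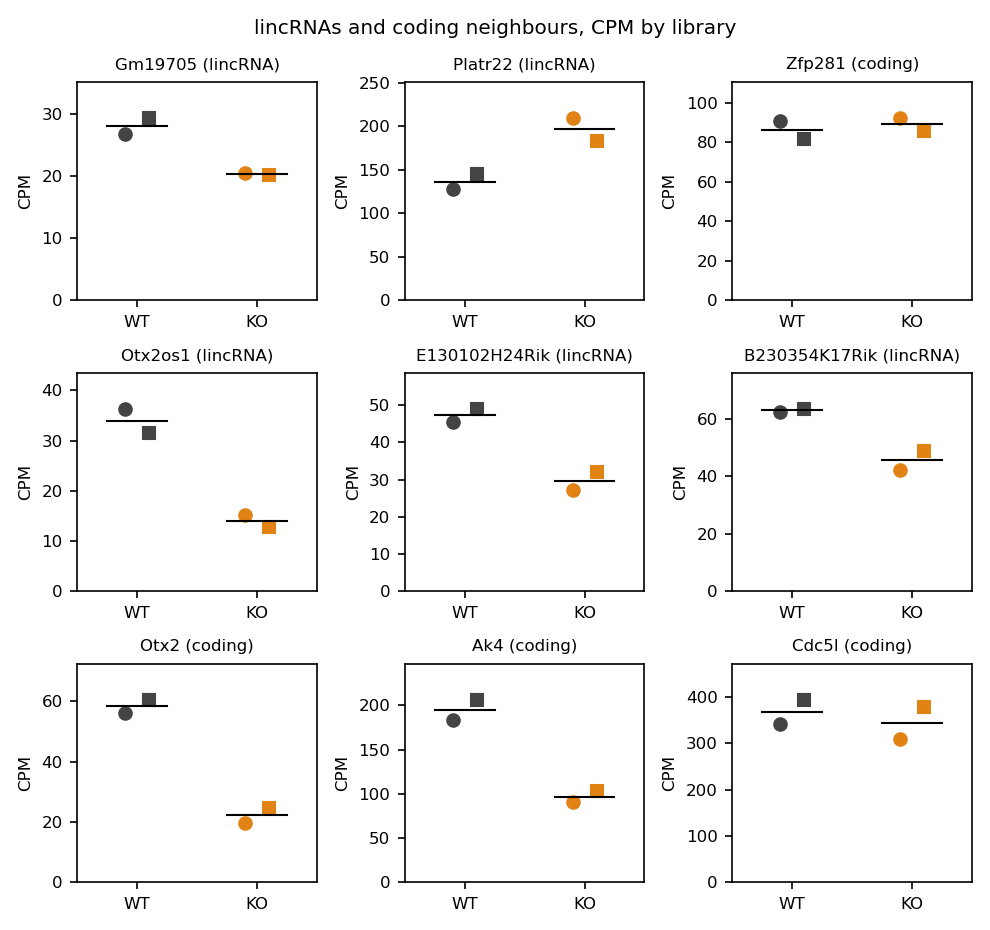
CPM by library (points; bars are the mean of the pair; axes start at 0) for lincRNAs and coding genes near them. Gm19705 is lower and Platr22 higher in KO beside Zfp281, Otx2os1 and E130102H24Rik fall with Otx2 and Ak4, and B230354K17Rik is lower while the Cdc5l libraries overlap.

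Gm14005 had the largest rise. It is the locus of Morrbid, an RNA known in myeloid cells for restraining its neighbour Bcl2l11, which encodes the pro-apoptotic protein BIM. It stood at 45.1 and 37.7 CPM in WT and 69.9 and 70.4 CPM in KO (chr2:128178319-128502765, minus strand; 0.76 ± 0.11, adjusted p = 0.00496). Bcl2l11, 15.8 kb away, changed by 0.14 (adjusted p = 0.450). Acoxl, an acyl-CoA oxidase-like gene 54.4 kb away, went the other way, from 13.7 and 18.8 CPM to 4.97 and 6.79 CPM (-1.46 ± 0.22, adjusted p = 0.00607).

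Gm44748 stood at 66.9 and 69.5 CPM in WT and 86.2 and 106 CPM in KO (0.50 ± 0.11, adjusted p = 0.0303), and without WT replicate 1 its adjusted p was 0.0540. Gm21781, a single-exon RNA 3.48 kb from Zbtb2, stood at 42.7 and 46.0 CPM in WT and 58.5 and 61.4 CPM in KO (0.43 ± 0.10, adjusted p = 0.0276). Its call was lost without WT replicate 1 (0.159), without WT replicate 2 (0.0715) and in DESeq2 (0.0561). 2610037D02Rik, which runs away from Arid2, a subunit gene of the PBAF remodelling complex 3.02 kb from it, stood at 101 and 99.2 CPM in WT and 142 and 127 CPM in KO (0.43 ± 0.09, adjusted p = 0.0257). It was at 0.0968 without WT replicate 1 and 0.172 without WT replicate 2. The groups of all 3 were apart, and neither Zbtb2 (0.30) nor Arid2 (0.21) was called.

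The most counted of the 93 were mostly not called. Gm26917 and Gm42418, adjacent models on chromosome 17 that match ribosomal RNA repeats, held between 0.803% and 0.939% of all mouse counts in each library, in libraries whose protocol omits ribosomal depletion, while the labels give polyA RNA as the molecule. Gm26917 stood at 7435 and 7197 CPM in WT and 6173 and 6723 CPM in KO (-0.18, adjusted p = 0.601), and Gm42418 at 1865 and 1472 CPM in WT and 1910 and 1563 CPM in KO (0.06). Reads of rRNA repeats exist in many copies, so both values are uncertain. Together the 93 RNAs took 1.73% and 1.62% of the mouse counts of the WT libraries and 1.64% and 1.57% of those of the KO libraries (exact two-sided permutation p = 0.667, smallest possible 0.3333). Without the rRNA-like pair the shares were 0.786% and 0.769% in WT and 0.808% and 0.768% in KO, which overlap.

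Among nuclear and structural RNAs, edgeR called 0 of the 6 members, where 8.07% of all genes tested were called. Malat1, an RNA of nuclear speckles, stood at 1206 and 1055 CPM in WT and 1444 and 1430 CPM in KO. Its KO libraries were both higher, with a log2 fold change of 0.35 ± 0.13 that did not pass (adjusted p = 0.154), but it passed without the low-count filter (0.0264) and with a term for the pairs of libraries with fewer and more reads (8.12e-05). Neat1, the scaffold of paraspeckles 22.0 kb from it, stood at 177 and 155 CPM in WT and 181 and 195 CPM in KO (0.18 with TMM scaling and -0.02 by S. pombe counts). Pvt1, beside Myc, stood at 858 and 853 CPM in WT and 940 and 889 CPM in KO (0.10, and -0.15 by S. pombe counts). Lncpint, a p53-induced RNA, stood at 64.8 and 59.4 CPM in WT and 79.4 and 66.4 CPM in KO (0.23, adjusted p = 0.257), and it passed without KO replicate 2 (0.0233). With the term for library pairs, Neat1 (0.0340), Lncpint (0.0221) and Epb41l4aos (0.00222, log2 fold change -0.31) also passed, so 4 of the 6 members were called in that fit. The term leaves 1 residual degree of freedom and called 41 of the 93 RNAs (44.1%), against 25.7% of all genes tested. The same list has 15 tested genes in all, of which 0 rose and 0 fell, and 5 had an unadjusted p under 0.05.

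Of the 9 pluripotency-associated members only Platr22 was called. Lncenc1, made in naive ES cells, stood at 593 and 661 CPM in WT and 536 and 625 CPM in KO (-0.11, adjusted p = 0.661), so its groups overlapped. Platr10 stood at 189 and 171 CPM in WT and 195 and 167 CPM in KO (0.01), and Platr28 at 74.6 and 80.4 CPM in WT and 68.5 and 83.9 CPM in KO (-0.02). Over the whole list, 2 of 27 tested genes rose and 5 fell, where 4.05% of all genes tested rose and 4.02% fell. Those that fell include Platr6 at 9.31 and 8.73 CPM in WT and 2.08 and 2.81 CPM in KO (-1.86 ± 0.22, adjusted p = 0.00265), which was below the count limit. Of the lineage list, 2 genes are among the 93: Otx2os1, described above, and Halr1, a Hoxa-side RNA at 21.8 and 20.6 CPM in WT and 20.5 and 26.6 CPM in KO (0.16, adjusted p = 0.579). The list of named miRNA host genes, which does not hold the 3 hosts found by position above, had no member among the 93. None of the 3 p53-linked members was called. Over the whole lists, 1 of 12 tested miRNA host genes rose and 1 fell, and 1 of 8 tested p53-linked genes rose and 0 fell. Of the 12 tested lineage genes, 0 rose and 2 fell. The shares of 4.05% and 4.02% over all genes tested stand beside these counts too.

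Marker genes of cell types were read from the same fit, in which 4.05% of all genes tested were called higher and 4.02% lower. ES cell markers summed to 2150 and 2169 CPM in WT and 1508 and 1752 CPM in KO, with 2 of 9 tested genes lower. Primitive endoderm markers summed to 505 and 594 CPM in WT and 990 and 1350 CPM in KO, with 8 of 10 higher. Trophoblast markers summed to 133 and 147 CPM in WT and 140 and 196 CPM in KO, with 5 of 9 higher. Fibroblast (feeder) markers summed to 404 and 383 CPM in WT and 384 and 360 CPM in KO, with 1 of 6 higher, Thbs1. Most of that feeder sum was Fn1, at 366 and 358 CPM in WT and 321 and 294 CPM in KO. Col1a1, Col3a1, Thy1 and Acta2 were at 4.49 CPM or less in every library. The 2 ES cell markers called lower were Nanog (log2 fold change -0.53, edgeR adjusted p = 0.0362) and Klf2 (-0.66, adjusted p = 0.0131). Esrrb (-0.79) and Zfp42 (-0.62) were lower without being called. Sall4 (-0.23), Utf1 (-0.03), Dppa5a (-0.03) and Tdgf1 (0.04) were not called either. Pou5f1, a defining ES cell marker, was at 139 and 128 CPM in WT and 154 and 135 CPM in KO (0.12, not called). No defining marker was at 0 other than Sox2, for the counting reason given above. Fewer cells of a type and less RNA per cell cannot be told apart in these bulk samples, and the part of cell state in the lincRNA changes was not tested.

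The lincRNAs and their nearest coding genes moved together only in part. Of the 93 RNAs, 79 had a tested nearest coding gene (76 different genes, some of them shared). The fold changes had the same sign in 46 of the 79 pairs (58.2%), against 54.7% of 11459 pairs of a coding gene and its own nearest coding gene. Across pairs, Pearson's r was 0.33 and Spearman's rho 0.24, against 0.20 and 0.16 in the coding pairs. These are descriptions over genes that share libraries and depth. Pairs under 5 kb or overlapping had the same sign in 22 of 33 (66.7%, r = 0.50, rho = 0.30), and pairs of 5 kb or more in 24 of 46 (52.2%, r = 0.23, rho = 0.20). Over all distances without overlapping pairs, r was 0.27 and rho 0.31. The close pairs were above the farther ones in rho as well, by less than in r, and neither difference was tested. In 2 pairs both genes were called and fell, Otx2os1 with Otx2 and E130102H24Rik with Ak4, and in 0 pairs were they called in opposite directions. That is 2.53% of the pairs in the same direction, against 179 of the 11459 coding pairs (1.56%), of which a further 14 (0.122%) were called in opposite directions, so the count of 2 is near that background. The coding gene was called in 7 of 76 (9.21%), near the 8.14% of all tested coding genes. In 15 pairs only the lincRNA was called and in 5 only the coding gene.

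**Figure D4:**
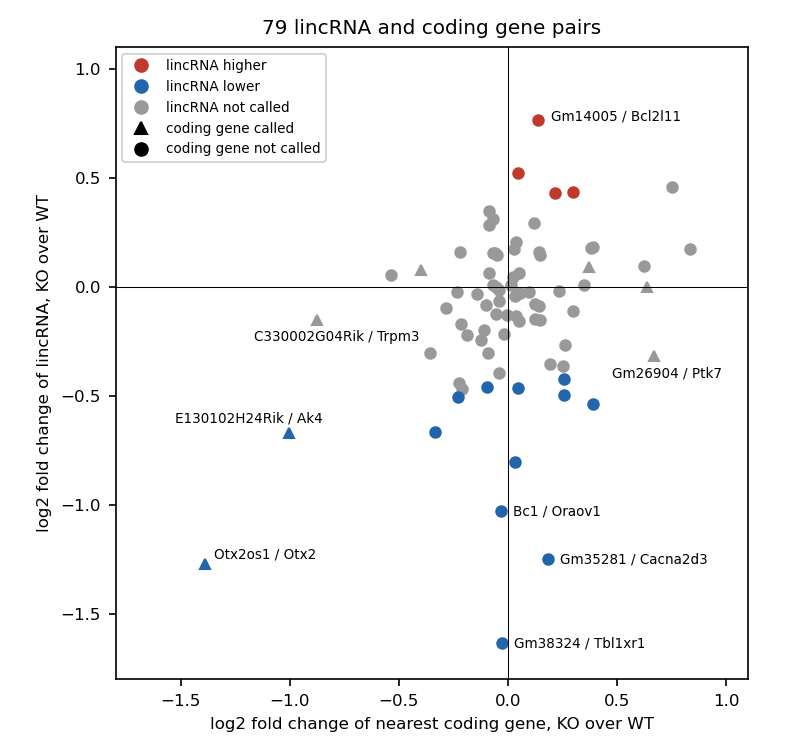
Log2 fold change of the nearest coding gene (x axis) against that of the lincRNA (y axis), KO over WT, for 79 pairs; colour gives the lincRNA's call and triangles a called coding gene. Otx2os1 with Otx2 and E130102H24Rik with Ak4 stand alone at the lower left, while Gm38324, Gm35281 and Bc1 fall beside coding genes near 0.

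Besides these pairs, the coding gene alone was called in 5, of which 3 are described here in more detail. The others were Ckap4 (log2 fold change 0.64, edgeR adjusted p = 0.0146) near Platr7 (0.00), and Nav1 (-0.40, adjusted p = 0.0334), which overlaps Gm38399 (0.08). 5031425E22Rik starts 172 bases from Kmt2e, a chromatin regulator gene transcribed the other way, and stood at 173 and 168 CPM in WT and 182 and 181 CPM in KO (0.09, adjusted p = 0.609). Kmt2e rose by 0.37 (adjusted p = 0.0345; 0.292 without WT replicate 1 and 0.221 without WT replicate 2), and the log2 ratio of the RNA to Kmt2e was 0.49 and 0.38 in WT and 0.17 and 0.14 in KO. Gm26904 overlaps Ptk7 on the opposite strand, and the values were -0.32 (adjusted p = 0.150) for the RNA against 0.67 (adjusted p = 0.0362; 0.0762 without WT replicate 2) for Ptk7. C330002G04Rik was at -0.15 (adjusted p = 0.419) where Trpm3, 47.5 kb away, fell by 0.88 on the log2 scale (adjusted p = 0.0160). A call in only one gene of a pair does not show that the genes differ, and of these pairs only the ratio to Kmt2e was compared directly (difference -0.28, exact two-sided permutation p = 0.3333, the smallest possible). Of 7 pairs that start within 5 kb of each other on opposite strands, the ratio differed least for Gm20045 with Dedd (0.03) and Platr20 with Gm12569 (-0.06).

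Looking farther out, the windows of 250 kb on either side of the 19 called RNAs held 70 tested coding genes, of which 7 were called (10.0%), near the 8.14% of all tested coding genes. For 13 of the 19 RNAs no coding gene in the window was called. For 5 there was one or more called in the same direction, each of them an RNA that fell, and for 1, Gm14005, one called in the opposite direction. Pmfbp1, in the window of D030068K23Rik, fell by 2.54 on the log2 scale but was at 1.05 CPM or less in every library and did not pass without WT replicate 2 (adjusted p = 0.166) or KO replicate 2 (0.0896). With so few tested genes in each window, nothing particular to the lincRNAs is read from these counts. By position, the RNAs upstream of a coding gene on the same strand gave 0 higher and 4 lower calls of 23, those downstream 1 and 3 of 21, divergent ones 2 and 3 of 16, convergent ones 1 and 3 of 16, those overlapping on the opposite strand 1 and 1 of 12, and those overlapping on the same strand 0 and 0 of 5. These groups are small, and over all genes tested 4.05% were called higher and 4.02% lower.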

How the data were processed

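Nascent RNA of 2 Supt3 WT and 2 Supt3 KO ES cell libraries was analysed. Per the submitters' processing notes, reads were handled with STAR 2.5.3, HTSeq 0.6.1p1, cutadapt 1.10, bcl2fastq 2.20.0.422 and DESeq2 1.16.1 on mm10. No strand setting or annotation release is given in the sources used here. The authors deposited raw counts per gene, with normalized signal values, log2 fold changes and p-values in a comparison table of their own that are not used here.

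Counts were fitted with edgeR 4.0.16 (R 4.3.3; quasi-likelihood test, TMM factors, filterByExpr with a minimum count of 10, Benjamini-Hochberg adjusted p under 0.05). CPM use the TMM library sizes, and standard errors were derived from the fold change and its F statistic. Gene structures are from GENCODE M21, where all 93 IDs were found, and sequences from RefSeq GRCm38.p6 and GENCODE M21. The fit was tested on counts simulated from its own means and spread. It called 22.4% of genes changed by 0.5 on the log2 scale, 59.7% at 1 and 89.4% at 2. Of unchanged genes it called 0.0301%. The changed genes were drawn from all 16789 genes tested, at all levels, so changes of 0.5 were mostly missed over that whole set. The share missed among genes counted as much as the 93 was not measured. Replicates are numbered in accession order. A chi-square over genes, divided by its degrees of freedom, was 5.55 between the WT replicates and 9.62 between the KO replicates, so none is a repeat deposit.

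The genes and lists were chosen with earlier results of these data known. Platr7 and Gm38399, with Ckap4 and Nav1 beside them, were added after their values were seen. Named are the 10 most counted genes, up to 12 called per direction with separate groups, up to 4 per list, 3 on each side of the limit, and nearest coding genes of these. B230354K17Rik, D030068K23Rik, 5031425E22Rik, 6720427I07Rik, 2900076A07Rik, C330002G04Rik, Gm26904, Gm26561, Epb41l4aos, Gm20045, Platr20, Platr6, Dnajc6, Fgf4, Acoxl, Spats1 and Pmfbp1, with coding genes beside these RNAs, were added after their values were seen. Alternatives were DESeq2 1.42.0, voom in limma 3.58.1, other scalings, filters, limits and each library left out; a fit with 1 library in a genotype borrows its spread from the other genotype.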

Additional observations from a re-analysis of the deposited data

How the results depend on the processing

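No paired analysis was possible because the labels carry no replicate numbers, and no columns pair libraries across genotypes. Median-of-ratios scaling, limma voom and dropping the low-count filter kept all 19 calls, and DESeq2 kept 15. Scaling by S. pombe counts gave 0 higher and 0 lower calls, a median of -0.29 and 0 pairs called together; its replicate spread was wider (coefficient of variation 0.363 against 0.0952). A term for the pairs of libraries with fewer and more reads, defined from the data and leaving 1 residual degree of freedom, gave 13 higher and 28 lower calls, 44.1% of the 93 against 25.7% of all genes tested. A summed count of at least 500 gave 14 higher and 22 lower calls of 170 genes, and one of at least 2000 gave 5 and 7 of 55. Over all genes tested 4.05% were called higher and 4.02% lower. The 53 RNAs more than 5 kb from a coding gene gave 2 higher and 10 lower calls and a median of -0.0777. Without overlapping pairs 1 pair was called together. The log2 ratio of the summed share, -0.06, was 0.0189 without the rRNA-like pair and -0.30 per S. pombe count. Leaving out 1 library gave 2 to 10 higher calls, 9 to 18 lower calls and medians from -0.0822 to -0.0241, and the cause of these moves was not tested. Every one of the 19 kept its sign in all of these fits. Both KO libraries of each lay on one side of both WT libraries, so leaving out a library could hardly change a sign. The kept signs are therefore no further support. With 2 libraries a genotype, an adjusted p above the threshold does not show that an uncalled RNA is alike in both genotypes; 34 of the 93 had an unadjusted p under 0.05, against 19 called.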
